A study of Mus musculus with 6 samples.

Results

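The tripartite motif (TRIM) genes of lung endothelial cells (EC) were compared between infant and young adult mice. Members were all gene symbols of the deposited expression table that begin with Trim and a number. Where a gene had several transcript rows, the row with the highest mean over the 6 libraries was used. This gave 39 genes of 12623 in the table, whereas the RefSeq annotation of mouse genome build GRCm38.p6 lists 69 such symbols, 68 of them protein-coding. The 39 genes came from 48 rows. For the 9 genes with more than 1 row, the rows of a gene differed by at most 0.3 RPKM (reads per kilobase of transcript, scaled to the depth of the library) in any library.

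TRIM proteins are built from a RING domain, B-boxes and a coiled coil, followed by a C-terminal domain that differs between subfamilies. The RING domain makes most of them ubiquitin ligases, and the coiled coil lets them form dimers. Many are induced by interferon and act in antiviral defence, where they restrict viruses directly or tune the sensing of foreign nucleic acid, while others work in chromatin, on microtubules or in differentiation. In rodents the Trim5, Trim12, Trim30 and Trim34 genes form an expanded cluster of close relatives.

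The study set infant against young adult C57BL/6N mice, for which the labels name no treatment and no altered gene, to follow EC as they become quiescent. Each age had 3 libraries, which the submitters call independent biological replicates. Per the study's methods, living CD31+ CD34+ cells that lacked PTPRC, LYVE1, LY76 and PDPN were sorted from collagenase-digested lungs, and libraries were made with a SMARTer Ultra Low kit. As background, kits of this type start cDNA synthesis at poly(A) tails and amplify it by PCR. The methods name female mice, and ages in days are not in the labels.

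Several library-wide values differed with age. The 4 globin genes took 3.41% to 23.5% of the summed RPKM in infant libraries and 0.307% to 0.487% in young adult ones. The 4 Y-linked genes examined lay between 2.1 and 21.9 RPKM in the infant libraries and were listed at 0 in all young adult libraries, so age and the sex of the animals cannot be told apart. The summed level of the 16 endothelial markers was 3387 to 5065 RPKM in infant and 5518 to 6037 RPKM in young adult libraries. Without Egfl7, the highest of them, it was 2382 to 3515 against 3672 to 4059 RPKM. Only 1 of the 16, Tek, was called higher and 0 lower, and 3 had differences below 0. Summed fibroblast markers lay at 347.1 to 1312.5 against 11.7 to 27.2 RPKM. Mural cell markers lay at 161.2 to 336.3 against 92.6 to 105.1 RPKM, and at 87.7 to 272.4 against 13.9 to 19.8 RPKM without Mcam, which endothelial cells also express. Cell division genes lay at 62.9 to 111.6 against 52.3 to 61.7 RPKM, and at 33.1 to 79.8 against 26.3 to 31.5 RPKM without Pcna. Epithelial markers lay at 6629 to 11553 against 1847 to 8442 RPKM. Of these 12, 5 were called lower and 1, Hopx, higher, against 8.10% and 3.33% of all genes. Infant replicate 2 had the lowest fibroblast, mural, erythroid and cell division sums of the infant group and the highest endothelial and epithelial sums. In such bulk samples, fewer cells of a type and less RNA per cell cannot be told apart.

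Most members were expressed at low to moderate levels. The median member had a mean of 3.47 RPKM, against 6.12 RPKM for all genes, and 32 of the 39 reached at least 1 RPKM in all 6 libraries. By mean level, 7 members lay at 10 RPKM or above, 7 between 5 and 10, 20 between 1 and 5, and 5 below 1. Trim16 and Trim35 alone held 34.7% of the family's RPKM, and the top 5 members held 55.3%. The family sum was 266.5, 299.3 and 263.0 RPKM (infant replicates 1 to 3) and 303.5, 284.9 and 315.9 RPKM (young adult replicates 1 to 3). The groups overlapped, at 276.3 ± 20.0 RPKM in infant and 301.4 ± 15.6 RPKM in young adult EC (SD, n = 3 each).

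**Figure D1:**
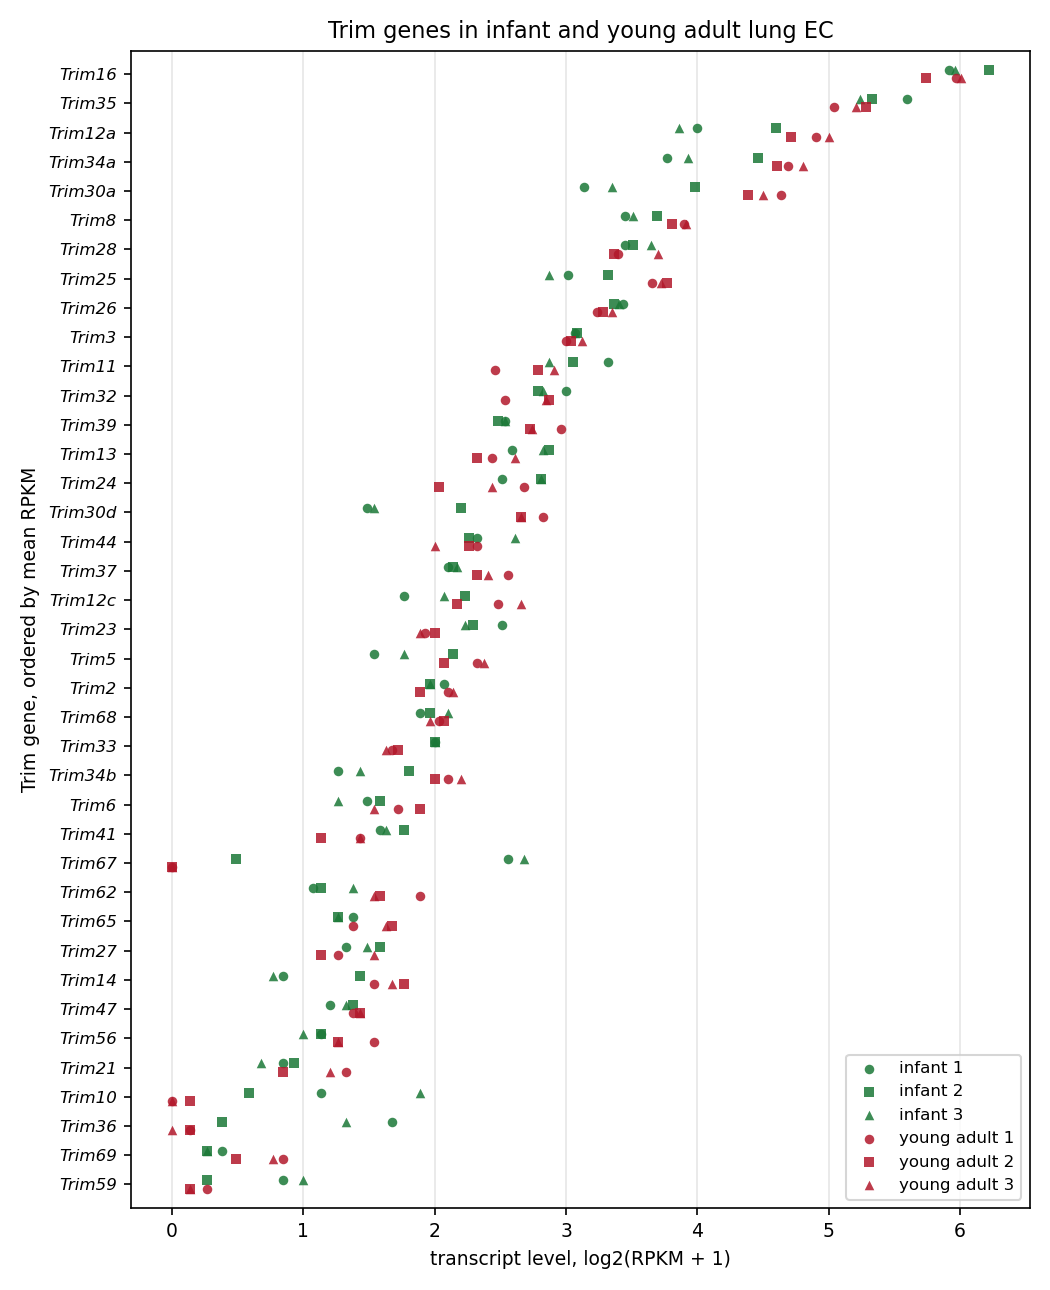
RPKM of all 39 Trim genes in the 6 libraries drawn as log2(RPKM + 1), ordered by mean level, with infant and young adult libraries in separate colours. Trim16 and Trim35 stand above all other members in every library, and 5 members have a mean below 1 RPKM.

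Of 38 members that reached 1 RPKM in at least 1 library, 8 rose and 5 fell from infant to young adult EC at an adjusted p under 0.05 (limma on log2(RPKM + 1), Benjamini-Hochberg adjustment over 12458 genes). Over all genes tested, 9.27% rose and 16.2% fell by the same rule. Of the 8 that rose, 7 were on a joint list of interferon-inducible and rodent cluster genes, which was assigned with these data known. Those that fell were Trim10, Trim23, Trim33, Trim36 and Trim67. When a change of more than 1.75-fold was also asked for, which is what "called" means here, on the log2(RPKM + 1) scale, 2 members were called higher and 3 lower, against 3.33% and 8.10% of all genes. The 3 libraries of each age did not overlap for 12 members higher in young adult EC and 7 lower, against 16.4% and 27.1% of all genes. The family had no common direction: 20 differences were above 0 and 18 below, with a median of 0.04 on the log2 scale against −0.07 for all genes.

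Only Trim69 failed the filter, at 0.3, 0.2 and 0.2 RPKM in the infant libraries, against 0.8, 0.4 and 0.7 RPKM at the later age. Under quantile normalization 46.6% of all calls were higher in young adult EC, against 29.1% with the values as deposited. That scaling moved the median of all genes from −0.07 to 0.04, and the median of the members became 0.25.

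**Figure D2:**
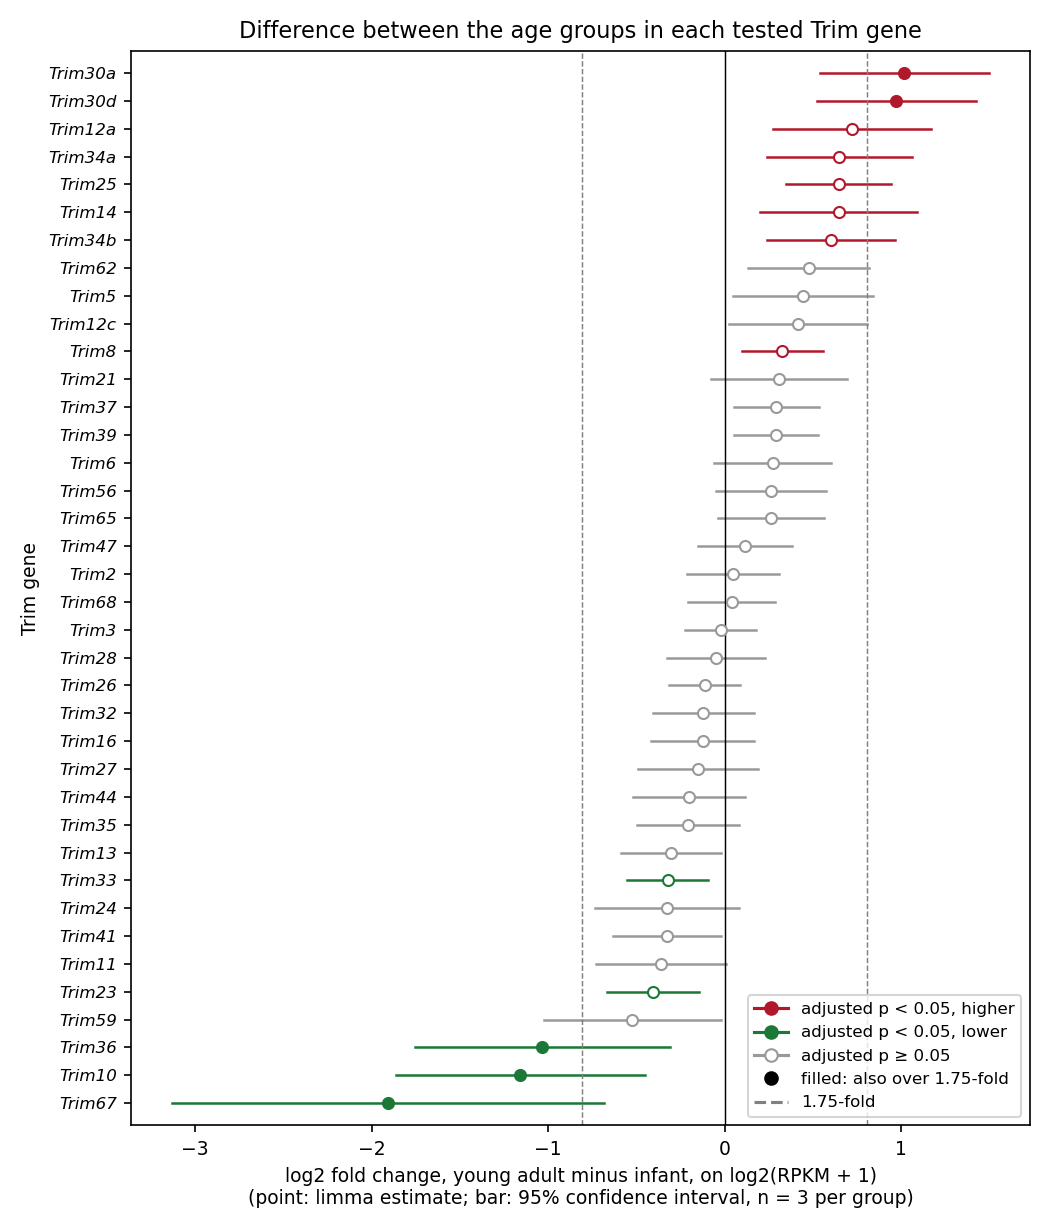
Log2 difference in RPKM + 1, young adult minus infant, with 95% confidence intervals from limma for the 38 tested Trim genes, ordered by size. Filled symbols are the 5 members called, and Trim67 has the widest interval, from −3.13 to −0.69.

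Of the 14 interferon-inducible and rodent cluster members, 13 were tested, of which 7 rose and 0 fell, against 9.27% and 16.2% of all genes. In this group 12 differences were above 0, as were 5163 of all 12458 genes tested. The median was 0.60 on the log2 scale, against −0.07 for all genes. The list was assigned with these data known and is not independent evidence of its direction. The cluster itself held 8 members between positions 104218795 and 104507853 of chromosome 7 (GRCm38.p6), of which 5 rose and all 8 had differences above 0. Its summed level was 44.7, 74.4 and 47.5 RPKM (infant replicates 1 to 3) and 97.9, 86.2 and 99.9 RPKM (young adult replicates 1 to 3). The lowest young adult library was thus above the highest infant one, infant replicate 2.

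Trim30a, which dampens Toll-like receptor signalling to NF-kB, had the largest difference among members that rose on this scale (chromosome 7, 104409025 to 104465193). It was measured at 7.8, 14.8 and 9.2 RPKM (infant replicates 1 to 3) and at 23.9, 19.9 and 21.6 RPKM (young adult replicates 1 to 3). All 3 young adult libraries were above the infant ones, of which replicate 2 was highest. The mean went from 10.6 ± 3.70 to 21.8 ± 2.01 RPKM (SD, n = 3), a ratio of 2.06, and the log2 difference was 1.02 ± 0.21 (SE, limma adjusted p = 0.0133). Without infant replicate 2 the ratio of means was 2.56.

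Its neighbour Trim30d (chromosome 7, 104470014 to 104507853) was measured at 1.8, 3.6 and 1.9 RPKM in the infant libraries, against 6.1, 5.3 and 5.3 RPKM at the later age. The groups did not overlap, and again the infant library of replicate 2 was highest of its group. The mean rose from 2.43 ± 1.01 to 5.57 ± 0.462 RPKM (SD, n = 3), a ratio of 2.29 and thus above that of Trim30a, with a log2 difference of 0.97 ± 0.19 (SE, limma adjusted p = 0.0126). Of the 100-base stretches of their transcripts, 4.79% for Trim30a and 5.53% for Trim30d also occur in another gene, so a small share of reads could have been split between them.

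Trim12a, a mouse relative of the retrovirus restriction factor TRIM5 (chromosome 7, 104299893 to 104315558), was measured at 15.0, 23.3 and 13.5 RPKM in the infant libraries, against 28.9, 25.2 and 31.1 RPKM at the later age. The gap between the groups was small, since infant replicate 2 lay just under young adult replicate 2. The log2 difference was 0.72 ± 0.19 (SE, limma adjusted p = 0.0322). Trim5 and Trim12c, the close relatives of Trim12a, did not pass the test. Trim5 was measured at 1.9, 3.4 and 2.4 against 4.0, 3.2 and 4.2 RPKM, and Trim12c at 2.4, 3.7 and 3.2 against 4.6, 3.5 and 5.3 RPKM. Their infant and young adult libraries overlapped, with log2 differences of 0.44 (limma adjusted p = 0.0937) and 0.41 (limma adjusted p = 0.107). Trim12a and Trim12c share 11.3% of their 100-base stretches with other genes each, and Trim5 12.7%.

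Trim34a (chromosome 7, 104244448 to 104262244) was measured at 12.6, 21.1 and 14.2 RPKM in the infant libraries, against 24.8, 23.4 and 26.9 RPKM at the later age, without overlap. Trim34b (chromosome 7, 104329471 to 104336617) was lower throughout, at 1.4, 2.5 and 1.7 against 3.3, 3.0 and 3.6 RPKM, and its groups did not overlap either. The log2 differences were 0.65 ± 0.18 for Trim34a (SE, limma adjusted p = 0.0341) and 0.60 ± 0.16 for Trim34b (SE, limma adjusted p = 0.0294). These are the least separable members. Of the 100-base stretches, 42.2% of Trim34a and 32.6% of Trim34b occur in another gene, and 23.5% of the exon bases of Trim34a are overlapped by a gene on the opposite strand. The library kit did not keep strand. The ratio of Trim34a to Trim34b was 8.35 to 9.0 in infant and 7.47 to 7.8 in young adult libraries.

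Trim25, the ligase that ubiquitinates the RNA sensor RIG-I (chromosome 11, 88999403 to 89020294), was measured at 7.1, 9.0 and 6.3 RPKM in the infant libraries, against 11.6, 12.6 and 12.2 RPKM at the later age. The groups were well apart, with means of 7.47 ± 1.39 and 12.1 ± 0.503 RPKM (SD, n = 3). The log2 difference was 0.65 ± 0.13 (SE, limma adjusted p = 0.0126), under the 1.75-fold threshold. No 100-base stretch of its transcript occurs in another gene. Trim14, a RING-less adaptor of mitochondrial antiviral signalling (chromosome 4, 46505072 to 46536150), was low, at 0.8, 1.7 and 0.7 against 1.9, 2.4 and 2.2 RPKM. Its groups did not overlap, but infant replicate 2 was close to young adult replicate 1. The log2 difference was 0.64 ± 0.19 (SE, limma adjusted p = 0.0444). Over the exons of all its annotated transcripts, 38.0% of bases are overlapped by genes on the opposite strand. Of the 100-base stretches of the transcript used, 5.04% occur in another gene.

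Trim8, which acts in cytokine signalling and binds SOCS1 (chromosome 19, 46501648 to 46516805), was the only member outside the interferon-inducible and rodent cluster list to rise. It was measured at 9.9, 11.9 and 10.4 RPKM in the infant libraries, against 13.9, 13.0 and 14.1 RPKM at the later age, a ratio of 1.27 without overlap. The log2 difference was 0.32 ± 0.10 (SE, limma adjusted p = 0.0472).

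**Figure D3:**
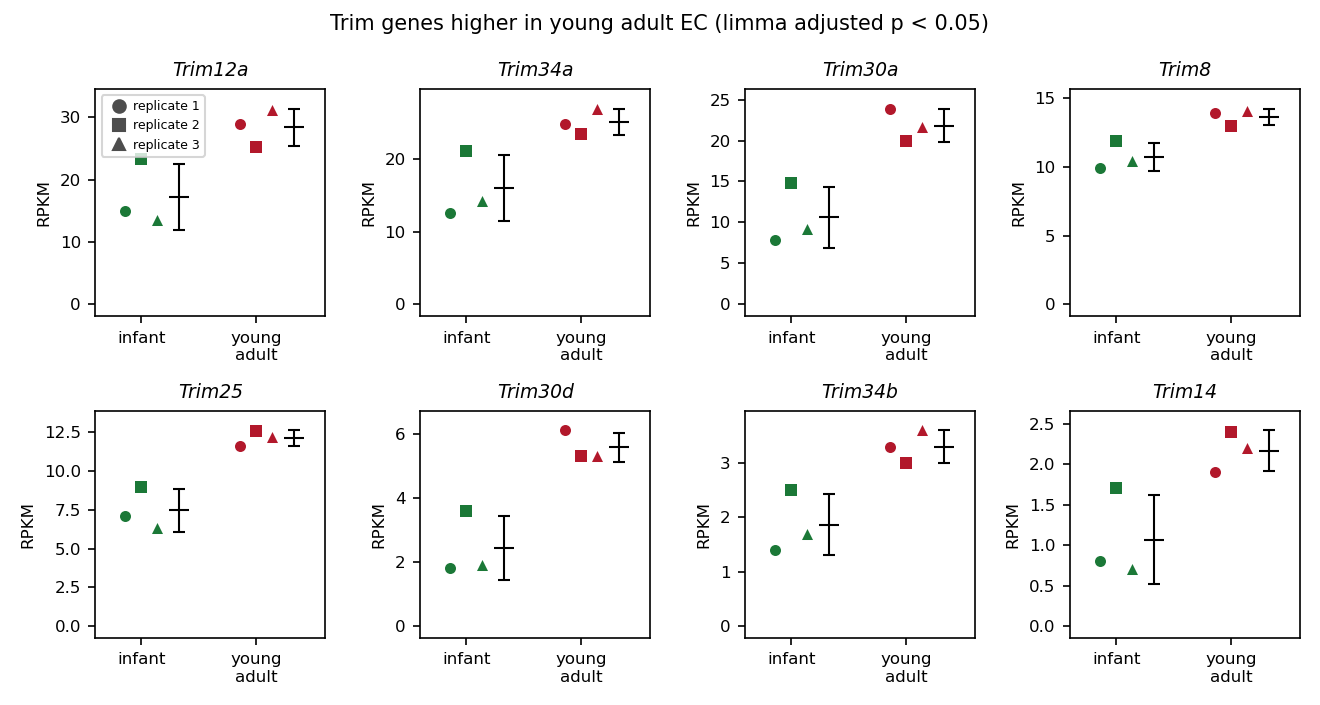
RPKM of the 8 members that rose, in each library, with the mean and SD of each group (n = 3) beside the points and a different symbol for each replicate. In all 8 panels the young adult points lie above the infant ones, and infant replicate 2, the square, is the highest infant point.

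Infant replicate 2 lay part of the way to the young adult level for all 8 of these members. Its log2(RPKM + 1) had covered 49.1% to 73.4% of the distance from the mean of infant replicates 1 and 3 to the young adult mean, with a median of 59.7%. For all 1155 genes that rose by the same adjusted p the median was 31.9%, with quartiles of 9.45% and 47.8%. For the 415 genes called higher the median was 36.6%, with quartiles of 19.6% and 50.9%. For the 11 genes called higher in the pathway lists described further on it was 51.9%, ranging from 38.3% to 64.3%. Infant replicate 2 also had the highest sum of endothelial markers in its group, at 5065.1 RPKM, against 3712.4 and 3386.5 RPKM in infant replicates 1 and 3. Summed leukocyte markers were 341.3, 541.2 and 502.3 RPKM in the infant libraries, against 142.8, 316.6 and 569.3 RPKM at the later age. Lyz2 made up most of each sum, and the 13 others summed to 66.0, 74.1 and 172.1 against 8.5, 31.0 and 53.8 RPKM, without overlap. Of the 14 leukocyte markers, 6 were called lower in young adult EC and 0 higher, against 8.10% and 3.33% of all genes. The part of either cell type in the members' levels was not tested.

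Other members of the interferon-inducible and rodent cluster list showed smaller differences. Trim21, a cytosolic antibody receptor, was measured at 0.8, 0.9 and 0.6 against 1.5, 0.8 and 1.3 RPKM, and the groups overlapped. Trim56, Trim6 and Trim26 had log2 differences of 0.26, 0.27 and −0.11, with limma adjusted p-values of 0.183, 0.197 and 0.358. Trim26 was the only tested member of the group below 0, and its groups did not overlap.

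The promoters of these genes were read for the core of the interferon-stimulated response element, a DNA motif bound by transcription factors that interferon activates. The letters searched were GAAA, any 2 bases and a second GAAA, on either strand, in windows from 250 bases before to 50 bases after each annotated start (RefSeq, GRCm38.p6). Of 30 members with a window, 9 held the motif, or 30.0%, against 3.77% of the 9026 tested genes with a window. The cluster is made of related copies, so its promoters are not independent of each other. The runs below are read 5′ to 3′ on the strand of the gene, with the match in capitals, and are shown for all 9 members with a match, so that the related copies can be compared base by base.
Trim30a: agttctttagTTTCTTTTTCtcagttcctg
Trim30d: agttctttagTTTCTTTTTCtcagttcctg
Trim12a: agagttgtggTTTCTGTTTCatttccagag
Trim5: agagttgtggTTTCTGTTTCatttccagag
Trim12c: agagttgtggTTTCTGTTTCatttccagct
Trim34a: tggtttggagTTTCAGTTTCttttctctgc
Trim21: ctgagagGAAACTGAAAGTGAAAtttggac
Trim26: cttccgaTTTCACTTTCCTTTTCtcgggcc
Trim2: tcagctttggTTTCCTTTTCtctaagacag

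The runs lie at chr7:104465210-104465239 for Trim30a, chr7:104507871-104507900 for Trim30d, chr7:104315466-104315495 for Trim12a and chr7:104288136-104288165 for Trim5, all on the minus strand. Those of Trim12c, at chr7:104353359-104353388, and Trim21, at chr7:102565447-102565476, are also on the minus strand, and that of Trim34a, at chr7:104244457-104244486, is on the plus strand. Outside chromosome 7, the run of Trim26 is at chr17:36836979-36837008 on the plus strand and that of Trim2 at chr3:84212791-84212820 on the minus strand. The runs of Trim30a and Trim30d were identical over 30 of 30 bases, as were those of Trim12a and Trim5, and Trim12c matched Trim12a at 28 of 30. Trim30a and Trim30d thus shared this run and both rose, while Trim12a and Trim5 shared theirs and only Trim12a passed the test. The difference between the responses of Trim12a and Trim5 was not tested. Trim21 and Trim26 held 2 overlapping matches each. Trim30a has a second annotated start, whose window also held 1 match, at chr7:104446104-104446133 on the minus strand, and matched the run shown at 26 of 30 bases.

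By outcome, the motif was found in 4 of the 6 rising members that had a window (Trim12a, Trim30a, Trim30d and Trim34a, but not Trim25 or Trim34b). It was found in 0 of the 3 falling members with a window and in 5 of the 20 tested members that did not pass the test (Trim5, Trim12c, Trim21, Trim26 and Trim2). A match is a description of these letters and not a shown binding site, and its absence says only that the letters are not in this window. Trim3, Trim8, Trim11, Trim14, Trim16, Trim33, Trim35, Trim36 and Trim65 had no window in the table used.

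**Figure D4:**
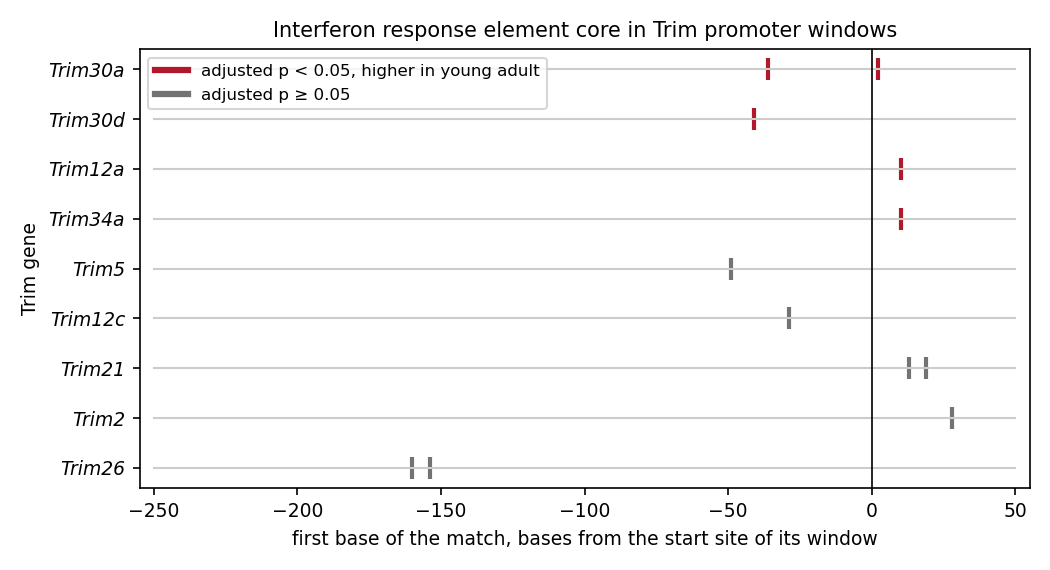
Distance in bases of each match to the response element core from the annotated start, for the members with a match. The start is at 0 and negative values lie before it. The matches of the cluster genes lie within 50 bases of the start, and those of Trim26 lie farthest before it.

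Among genes that work with these members, the sensing and interferon lists rose in part. Of the 15 tested genes of cytosolic nucleic acid sensing, 5 were called higher and 1 lower. Of the 12 tested genes of interferon signalling, 5 were called higher and 0 lower, against 3.33% and 8.10% of all genes. By adjusted p alone, 7 sensing genes rose and 1 fell, and 5 interferon signalling genes rose and 1 fell. The shares of all genes by that rule were 9.27% and 16.2%. The interferon signalling gene that fell was the interferon receptor Ifnar1, at −0.37 (limma adjusted p = 0.0334). Ddx58, which encodes RIG-I, the substrate of TRIM25, had a log2 difference of 0.90 (limma adjusted p = 0.0126). Isg15, a ubiquitin-like modifier, had one of 1.69 (limma adjusted p = 0.00568). Dhx58, Ifih1 and Irf7 were also called higher, at 1.27, 0.87 and 1.23, as were, among others, Stat2, Irf1, Irf9 and Usp18, at 1.25, 1.03, 1.15 and 1.88. Ikbke, a kinase that phosphorylates IRF3, was the gene called lower, at −1.12 (limma adjusted p = 0.0286). Rnf135, another ligase of RIG-I, and the adaptor Mavs did not pass the test, at 0.18 and −0.04.

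Of the 13 tested ubiquitin-activating and -conjugating enzymes, 1 was called higher and 1 lower, against 3.33% and 8.10% of all genes. Uba7, which activates ISG15, rose from 30.4 ± 9.87 to 81.0 ± 5.73 RPKM (SD, n = 3), with a log2 difference of 1.43 (limma adjusted p = 0.00407). Ube2e2 fell by 0.88 on the log2 scale (limma adjusted p = 0.0361). The 3 family members with other symbols (Pml, Mid1 and Mid2) were not called, and Pml, which forms nuclear bodies, had a difference of 0.28 (limma adjusted p = 0.0825). Mid1 and Mid2 had differences of −0.0045 and 0.0232.

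Among members that fell, Trim67, Trim10 and Trim36 were called. All were low, and for all of them infant replicate 2 was the lowest infant library. Each reached 1 RPKM in only 2 libraries, infant replicates 1 and 3. They thus passed the filter only through the group in which they were higher. Trim67, known mainly from neurons (chromosome 8, 124791317 to 124834713), was measured at 4.9, 0.4 and 5.4 RPKM in infant EC and was listed at 0 in all 3 young adult libraries. The log2 difference was −1.91 ± 0.53 (SE, limma adjusted p = 0.0351), and it was −4.58 with a pseudocount of 0.1 and −0.72 with 5 (limma adjusted p = 0.0554). Trim36, which like Trim67 has the microtubule-binding COS box (chromosome 18, 46165300 to 46212607), was measured at 2.2, 0.3 and 1.5 against 0.1, 0.1 and 0.0 RPKM. Its log2 difference was −1.03 ± 0.31 (SE, limma adjusted p = 0.0453), and the groups did not overlap, by 0.3 against 0.1 RPKM. With pseudocounts of 0.1 and 5 it was −2.84 and −0.31 (limma adjusted p = 0.0632 for the latter).

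Trim10, which is needed for terminal erythroid differentiation (chromosome 17, 36869496 to 36877833), was measured at 1.2, 0.5 and 2.7 RPKM in the infant libraries, against 0.0, 0.1 and 0.0 RPKM at the later age. The log2 difference was −1.16 ± 0.30 (SE, limma adjusted p = 0.0299), and −3.36 and −0.35 with pseudocounts of 0.1 and 5 (limma adjusted p = 0.0576 for the latter). Under quantile normalization none of these 3 members passed, with limma adjusted p-values of 0.065 for Trim67, 0.153 for Trim36 and 0.0959 for Trim10. Red cell markers moved with it. Alas2, the first enzyme of haem synthesis in red cell precursors, was measured at 72.5, 29.0 and 149.5 against 1.3, 3.6 and 1.6 RPKM, and all 7 erythroid markers tested were called lower. The infant libraries had the same order for Trim10 and Alas2, with replicate 3 highest and replicate 2 lowest. Infant replicate 2 was also the lowest infant library for 9 of 11 fibroblast, 11 of 14 mural and 14 of 16 cell division markers, but Dcn and Lum, of fibroblasts, were highest there, at 19.9 and 14.4 RPKM. Pdgfra, a fibroblast receptor, was at 87.2, 2.6 and 66.8 against 0.2, 0.6 and 0.5 RPKM. Mki67, a marker of dividing cells, was at 4.6, 0.7 and 4.1 against 0.0, 0.0 and 0.1 RPKM. Against 8.10% of all genes, 10 of 11 fibroblast markers were called lower, as were 12 of 14 mural markers and 10 of 16 cell division genes. Their part in the levels of Trim67, Trim36 and Trim10 was not tested.

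Trim23 and Trim33 fell less but had little spread. Trim23, which carries a GTPase domain of the ARF type (chromosome 13, 104178839 to 104203475), was measured at 4.7, 3.9 and 3.7 against 2.8, 3.0 and 2.7 RPKM. No libraries overlapped, and the log2 difference was −0.41 ± 0.11 (SE, limma adjusted p = 0.0352). Trim33, a chromatin cofactor that binds SMAD proteins of TGF-beta signalling (chromosome 3, 103279293 to 103358770), was measured at 3.0, 3.0 and 3.0 against 2.2, 2.3 and 2.1 RPKM. Its log2 difference was −0.32 ± 0.10 (SE, limma adjusted p = 0.0483), near the threshold, and its spread was no wider than a few rounding steps of 0.1 RPKM. With libraries scaled to an equal sum, the limma adjusted p was 0.172 for Trim23 and 0.232 for Trim33. Under quantile normalization their differences were −0.22 and −0.08, with limma adjusted p-values of 0.207 and 0.615. For Trim23 and Trim33, infant replicate 2 lay 18.2% and 0% of the way to the young adult mean, unlike the 63.2%, 79.6% and 81.5% of Trim10, Trim36 and Trim67. For all 2023 genes that fell by adjusted p the median was 33.4%, with quartiles of 6.03% and 54.9%. For the 1009 genes called lower, as Trim10, Trim36 and Trim67 were, the median was 44.1%, with quartiles of 17.6% and 61.5%.

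**Figure D5:**
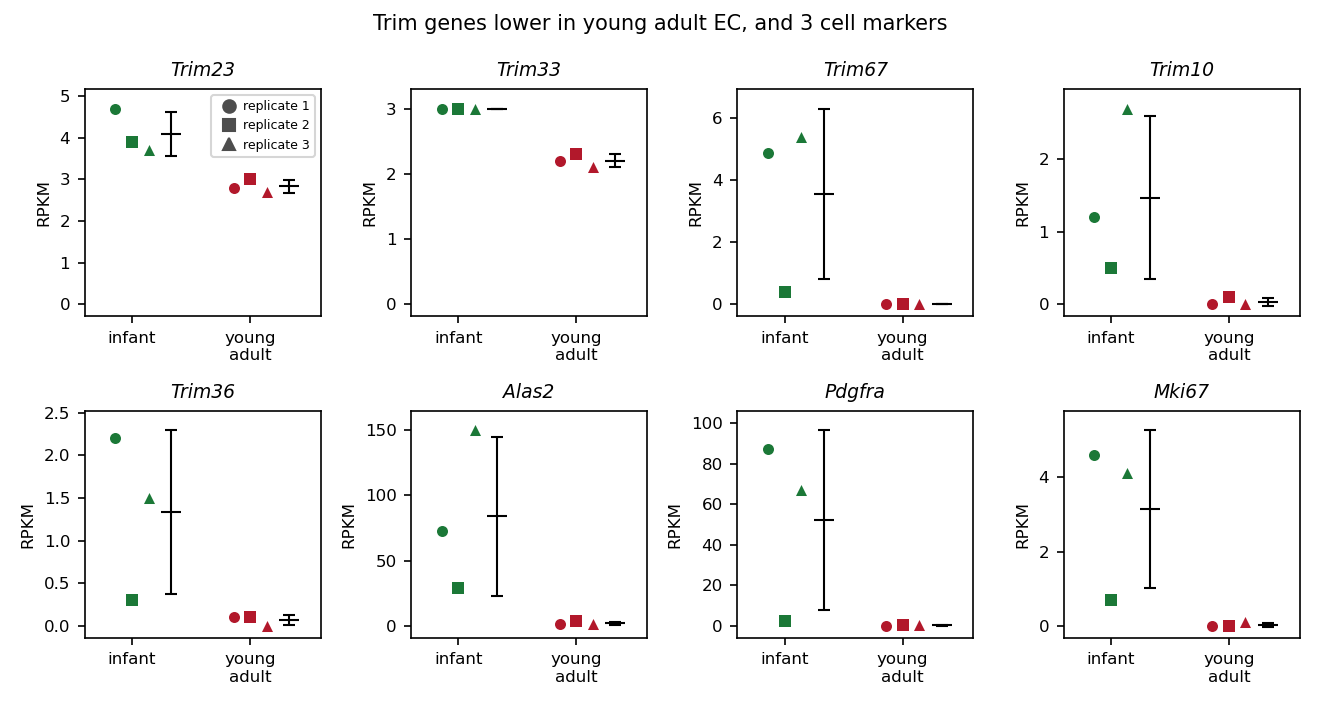
RPKM of the 5 members that fell and of 3 marker genes (Alas2, Pdgfra and Mki67) in each library, with the mean and SD of each group (n = 3). Infant replicate 2, the square, is the lowest infant point for Trim67, Trim10 and Trim36 and for all 3 markers.

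The remaining abundant members did not pass the test. Trim16, a RING-less member linked to the autophagy of damaged lysosomes, was the highest of the family at 59.3, 73.6 and 61.3 against 61.6, 52.5 and 63.5 RPKM. Its groups overlapped, and the log2 difference was −0.13 with a 95% interval of −0.42 to 0.17. Trim35 was measured at 47.3, 39.2 and 36.7 against 32.0, 37.9 and 36.0 RPKM, with a log2 difference of −0.21 and an interval of −0.50 to 0.08. Trim28, the corepressor of KRAB zinc finger proteins, was measured at 9.9, 10.4 and 11.5 against 9.5, 9.3 and 12.0 RPKM. Its interval, −0.33 to 0.23, spans 0, and its sign changed under 2 of the scalings tried.

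The 3 chromatin cofactors Trim24, Trim28 and Trim33 all had differences below 0, with a median of −0.32. Of their 13 partners tested, 0 were called, against 3.33% of all genes called higher and 8.10% lower. By adjusted p alone 0 of the partners rose and 2 fell, against 9.27% and 16.2% of all genes. Differences were below 0 for 12 of the 13 partners, and their median was −0.24. Of all 12458 genes tested, 7295 were below 0, with a median of −0.07. Chd4, the ATPase of the NuRD complex, fell by 0.40 on the log2 scale (limma adjusted p = 0.0244), and Zfp57, a KRAB protein of imprinted loci, fell by 0.63 (limma adjusted p = 0.0141), both without reaching the fold threshold. The 3 NHL-repeat members, Trim2, Trim3 and Trim32, had a median of −0.02 and none passed the test. Of the 9 other RING members, 1 (Trim8) rose, and Trim62 was just outside the threshold at 1.1, 1.2 and 1.6 against 2.7, 2.0 and 1.9 RPKM (limma adjusted p = 0.0518). Trim37 and Trim39 did not overlap between ages, both higher in young adult EC, but had limma adjusted p-values of 0.0753 and 0.0739. The membrane-anchored Trim13 and Trim59 were below 0, at −0.31 and −0.52, and did not pass the test either. Trim59 was measured at 0.8, 0.2 and 1.0 against 0.2, 0.1 and 0.1 RPKM, with infant replicate 2 equal to young adult replicate 1. The directions of Trim2, Trim3, Trim27, Trim28 and Trim68 changed with the scaling.

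The 13 members that passed the test were refitted without each library in turn. Trim25 and Trim30a passed in 5 of 6 such fits, and Trim30d in 4 of 6. Trim33 passed in 0, and the other 9 passed only in the fit that left out infant replicate 2. Without young adult replicate 2 the limma adjusted p of Trim25 was 0.0584, and without young adult replicate 1 that of Trim30a was 0.0583. Leaving out infant replicate 2 gave 9 members higher and 5 lower.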

How the data were processed

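RNA-seq libraries of sorted lung EC from infant and young adult mice (3 each, grouped by title) were analysed. Per the submitters' notes and the study's methods, the authors aligned reads to mm10 with STAR and tested genes with DESeq2. Which STAR version and which RPKM software were used is not given in the sources used here. The deposited values were the authors' RPKM, 1 row per RefSeq transcript, rounded to 0.1, and do not give the depth of each library. The study's methods state an average transcriptome coverage but no value per library. Symbols changed into dates were restored in 24 rows. Genes with at least 1 RPKM in 1 library (12458) were tested with limma 3.58.1 in R 4.3.3 (trended eBayes) on log2(RPKM + 1), which understates changes of low genes. The filter follows the study. Its 1.75-fold threshold was set on fold changes of its own test and is used here on a fold of RPKM + 1. The p-values measure the spread between these libraries. In data simulated with the same SD for both ages, the fit recovered 164 of 200 changes of 1.5 on the log2 scale, with 1 false call. Most member differences were smaller than that, so the simulation does not tell how often such differences are found. Shared 100-base stretches and exon overlaps were computed from GENCODE transcripts. Members and lists were chosen with earlier results of these data known. Members with an adjusted p under 0.05, or a mean of at least 10 RPKM, or failing the filter, were named with their values, and a few others were chosen after their values were seen. Alternatives covered the pseudocount, filter, scaling, variance model, weights, replicate block, transcript rows, fold threshold and leaving out each library. Some genes of the lists are not reported here.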

Additional observations from a re-analysis of the deposited data

How the results depend on the processing

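No direction of the 13 passing members reversed under the alternatives run, but the counts moved. Members called higher (2) became 4 with a pseudocount of 0.1, 0 with 5, 4 with quantile normalization, 8 with no fold threshold and 0 with limma's test against the threshold. Members called lower (3) became 0 with a pseudocount of 5, 1 with a filter on the mean, 0 with quantile normalization, 5 with no fold threshold and 0 with the test against the threshold. Members passing the adjusted p alone and higher (8) became 16 with quantile normalization and 0 with the test against the threshold, and those lower (5) became 1 with a pseudocount of 5, 3 with the filter on the mean, 3 with libraries scaled to an equal sum, 0 with quantile normalization, 3 with robust eBayes and 0 with the test against the threshold. Leaving out each library gave 0 to 5 called higher, 0 to 3 called lower, 1 to 9 higher and 0 to 5 lower by adjusted p. Under the test against the threshold, 52 genes of the whole table were higher and 124 lower. With the replicate block, 2 members were called higher, and 4 members were higher and 2 lower by adjusted p. The deviations of same-numbered libraries correlated at 0.028, −0.11 and −0.021, and those of different-numbered libraries at −0.122 to 0.111. No pairing by number was visible, but so few values cannot decide whether the libraries were paired. Among members that did not pass, log2 differences near 0 changed sign. With libraries scaled to an equal sum, Trim28 was 0.0334 and Trim3 0.054, and without the globin genes in that sum Trim68 was −0.0414 and Trim2 −0.0373. Under quantile normalization Trim27 was 0.1412, Trim28 0.0054 and Trim3 0.0809. Leaving out each library gave −0.1552 to 0.0127 for Trim28, −0.0583 to 0.0022 for Trim3, −0.0107 to 0.0977 for Trim68 and −0.0032 to 0.1218 for Trim2. The causes of these shifts were not tested.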
